A study of Mus musculus with 11 samples.

Results

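MHC class I antigen presentation is described here through 9 genes chosen by name: B2m, H2-K1, H2-D1, Psmb8, Psmb9, Tap1, Tap2, Tapbp and Nlrc5. For each gene, the peaks of 11 CUT&RUN lists inside the gene or within 5 kb of either end were collected on mm10, and the nearest peaks were sought to 25 kb. The 9 genes are part of 21631 protein-coding genes on chromosomes 1 to 19 and X. The rule names them and uses no threshold on a measured value, but they were chosen with earlier results of these data known.

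Class I molecules carry peptides from proteins made inside a cell to its surface, where CD8 T cells and natural killer cells read them. The heavy chain (H2-K1 or H2-D1) pairs with the light chain beta-2 microglobulin (B2m). The immunoproteasome subunits Psmb8 and Psmb9 help cut the peptides, Tap1 and Tap2 form the transporter that carries them into the endoplasmic reticulum, and tapasin (Tapbp) helps load them. Nlrc5 is a transactivator of these genes. The promoters of the heavy chain genes and B2m are known to hold an upstream kappaB element, bound by NF-kappaB proteins such as p65 (the product of Rela). They also hold an interferon-stimulated response element (ISRE) and a composite element that includes a reversed CCAAT box. Neural cells at rest are known for low class I levels, which interferon raises.

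The libraries came from M00002 and M00001, 2 cell lines of mouse tumours, each with its own mouse number, grown untreated in neural basal medium with growth factors. The HA libraries of both lines are described as HA-tagged CRfus1, which was read as the fusion of ZFTA and RELA named by the series, known to drive supratentorial ependymoma. M00002 gave libraries for HA, p65, H3K27ac (histone acetylation found at active promoters and enhancers) with the antibodies ac4729 and ac647, and IgG as the control. M00001 gave HA, the coactivators Cbp and p300, and IgG, and 2 libraries of Rpb1, the main catalytic subunit of RNA polymerase II, labelled S2 and S5, names known from the phosphorylated forms of elongating and initiating polymerase. No library of a line without the fusion was analysed here, and no source used here gives the way the fusion was introduced. There was 1 library per line and antibody, so no value below has a replicate and no difference was tested. A peak in a list of pooled cells does not tell how many cells carried it. The lists held from 1806 (IgG, M00001) to 30680 (HA, M00002) peaks, read depth is unknown, and a missing peak is no measure of absence. An antibody to p65 may bind the free protein or the RELA portion of the fusion, and the lists cannot tell these apart.

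The markers fixed for the cell type were read from H3K27ac of M00002. Both antibodies had peaks at 5 of 6 neural progenitor genes (Sox2, Nes, Sox9, Vim and Slc1a3, without Fabp7), and 27.7% of all genes had both. The folds of Sox2 were low, 2.36 with ac4729 and 2.75 with ac647, where the medians of all peaks were 4.02 and 4.235. Both antibodies also had peaks at 3 of 8 leukocyte and microglia genes, Ptprc, Csf1r and Cd68. HA of M00002 lay at 6 of these 8 genes, and at 50.2% of all genes. M00001 has no H3K27ac list. Its S2 lay at 3 of the 6 neural progenitor genes and 3 of the 8 leukocyte and microglia genes (56.3% of all genes). Its S5 lay at 1 gene of each list (33.9%). Cx3cr1 had 0 peaks in any list and Spi1 had 0 peaks of H3K27ac. Leukocytes carry much class I, and the part of such cells in the values below was not tested.

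HA of M00002 lay on 6 of the 7 promoter windows found, and the 4 below are shown because their HA peaks have −log10 q above 5. Those of Tap1 and Psmb9, which share a weaker HA peak and hold no kappaB match, are not shown. They come from RefSeq (GRCm38.p6, the assembly behind mm10), read 5′ to 3′ on the strand of the gene from 250 bases before the start site to 50 bases from it on. Capitals mark every match to the degenerate kappaB motif, searched on both strands, where overlapping matches run together.
H2-D1, chr17:35262844-35263143, plus strand: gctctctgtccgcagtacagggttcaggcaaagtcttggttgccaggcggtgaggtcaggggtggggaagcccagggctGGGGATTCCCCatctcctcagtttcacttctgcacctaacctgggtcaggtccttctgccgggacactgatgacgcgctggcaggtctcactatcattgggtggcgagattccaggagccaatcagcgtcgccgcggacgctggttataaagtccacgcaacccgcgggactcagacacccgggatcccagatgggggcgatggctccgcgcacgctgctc
H2-K1, chr17:34000298-34000597, minus strand: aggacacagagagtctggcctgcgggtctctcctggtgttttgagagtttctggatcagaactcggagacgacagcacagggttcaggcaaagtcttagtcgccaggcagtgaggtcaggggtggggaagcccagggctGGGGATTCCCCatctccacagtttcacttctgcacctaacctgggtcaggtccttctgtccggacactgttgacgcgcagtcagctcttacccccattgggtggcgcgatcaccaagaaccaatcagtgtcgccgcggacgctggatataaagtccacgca
B2m, chr2:122147437-122147736, plus strand: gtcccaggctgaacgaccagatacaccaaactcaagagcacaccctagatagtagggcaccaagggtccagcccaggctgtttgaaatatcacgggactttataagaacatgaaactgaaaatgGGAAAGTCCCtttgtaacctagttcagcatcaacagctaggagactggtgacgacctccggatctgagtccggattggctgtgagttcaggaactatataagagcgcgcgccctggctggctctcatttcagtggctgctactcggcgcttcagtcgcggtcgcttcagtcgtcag
Tapbp, chr17:33919228-33919527, plus strand: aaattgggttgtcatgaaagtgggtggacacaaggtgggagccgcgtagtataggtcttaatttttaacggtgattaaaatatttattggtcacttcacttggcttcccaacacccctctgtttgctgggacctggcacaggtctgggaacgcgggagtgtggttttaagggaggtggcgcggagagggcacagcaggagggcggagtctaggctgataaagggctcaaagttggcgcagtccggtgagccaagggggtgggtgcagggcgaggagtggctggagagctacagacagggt
The promoters of H2-D1 and H2-K1 hold the same run of letters around the kappaB match. B2m holds a kappaB match on the other strand, and Tapbp has no capitals, so these letters do not occur in its window. The table matched 7 of the 9 genes; Tap2 and Nlrc5 had no entry.

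HA of M00002 lay at all 9 genes, and 50.2% of all protein-coding genes had a peak by the same rule. HA of M00001 lay at 2 of the 9, H2-D1 and Tapbp, close to the 22.8% of all genes. p65 lay at 7 (33.5% of all genes), all but Tap2 and Psmb9, each with HA of M00002 in the same window (both: 29.9% of all genes). H3K27ac lay at 8 with ac4729 (50.9%) and at 5 with ac647 (29.2%). In M00001, S2 lay at 9 (56.3%) and S5 at 8 (33.9%), all but H2-K1, while Cbp lay at 1 (13.1%) and p300 at 1 (15.8%). IgG of M00002 lay at 1 gene (11.2%) and IgG of M00001 at 1 (3.49%). HA of both lines lay at 2 of the 9, where 20.4% of all genes had both. The 9 genes are not 9 separate sites: Psmb9, Tap1, Psmb8 and Tap2 stand side by side on chromosome 17 and share peaks. The windows held 66 distinct peaks of the 9 lists other than IgG, and 0 of these overlapped an IgG peak of either line. The share of all peaks with such an overlap was not counted, so the 0 does not set these genes apart. Removing peaks over IgG changed the shares of all genes little. HA of M00002 went from 50.2% to 49.7%, S2 from 56.3% to 55.5%, and Cbp or p300 from 22.8% to 21.5%. The 2 IgG peaks in the windows of the 9 genes were weak. One lay inside Nlrc5 (M00002, fold enrichment 2.87, −log10 q of 0) and one 2819 bp beyond the far end of Psmb9 (M00001, 3.30, −log10 q 0.0405). Fold enrichment is the authors' value at the summit of a peak, over the background of the peak caller, and is used here only within a list.

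**Figure D1:**
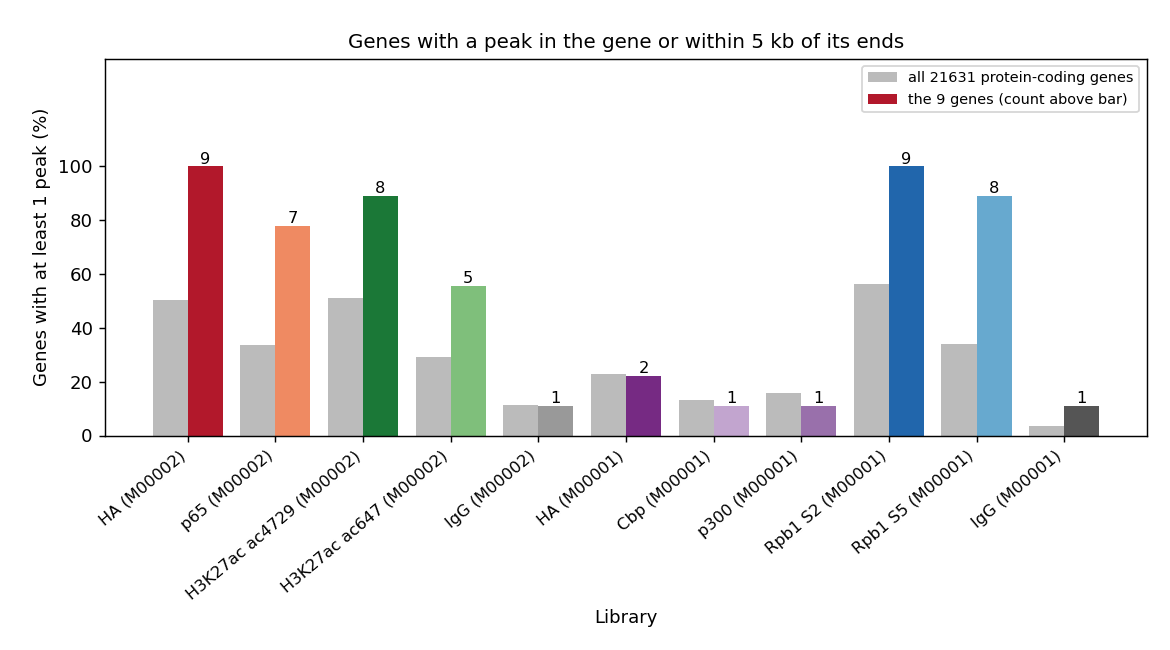
Percentage of genes with at least 1 peak in the gene or within 5 kb (vertical axis), for all 21631 protein-coding genes (grey bars) and for the 9 class I genes (coloured bars, counts above them) in each of the 11 libraries (horizontal axis). HA of M00002 and S2 of M00001 lay at all 9 genes, while HA, Cbp and p300 of M00001 lay at 2, 1 and 1.

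**Figure D2:**
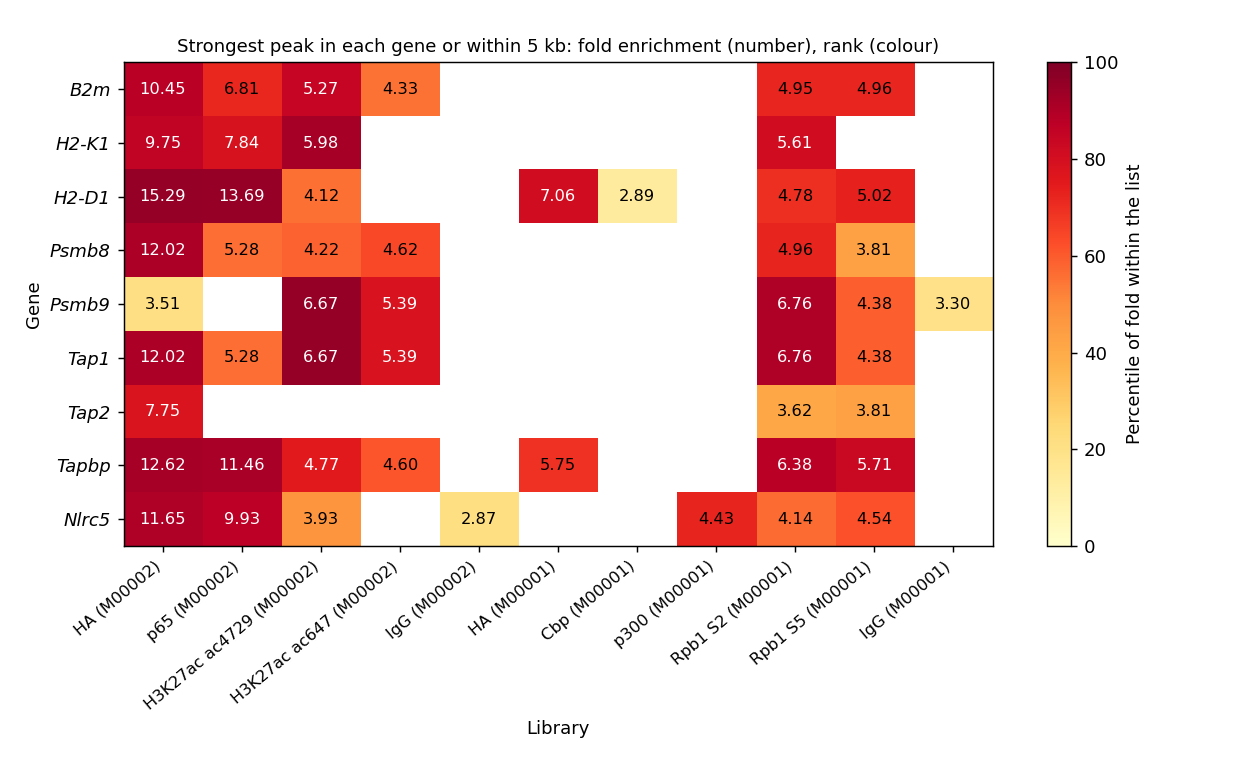
Strongest peak at each of the 9 genes (rows) in each of the 11 libraries (columns): the number is the fold enrichment and the colour its percentile among all peaks of that list, with white where no peak lay in the window. HA of M00002 stands at or above the 77.7 percentile at all genes but Psmb9 (20.9). The Tap1 cell (90.85) is the peak shared with Psmb8, past the far end of Tap1. At its own start site Tap1 has only the weak peak it shares with Psmb9 (20.9). The coactivator columns of M00001 hold 1 cell each.

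The heavy chain gene H2-D1 (chromosome 17, 35263094 to 35267497, gene 14964) had the highest HA fold of the 9. In M00002 the fold was 15.3 (35262889 to 35263112), in the 95.35 percentile of the list, and in M00001 it was 7.06 (35262772 to 35263031), in the 80.9 percentile. p65 had a fold of 13.7 on the same site. The summits of HA in M00002, of p65 and of HA in M00001 lay 109, 104 and 104 bp upstream of the start site, so they fell within 5 bp of each other. The summit of S2 also lay 104 bp upstream (fold 4.78) and that of S5 47 bp upstream (5.02). H3K27ac with ac4729 covered the start site with a fold of 4.12 (35262540 to 35263360), and ac647 had its nearest peak 20734 bp away, beside Atp6v1g2 and Ddx39b. The single Cbp peak lay inside the gene, 3877 bp past the start site, with a fold of only 2.89 and a −log10 q of 0.965. A further S2 peak 4764 bp upstream (3.06) is shared with Ddx39b.

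H2-K1 (chromosome 17, 33996012 to 34000619, gene 14972), the other classical heavy chain gene here, had HA in M00002 with a fold of 9.75 (34000343 to 34000500) and 0 HA peaks of M00001. The nearest HA peak of M00001 lay 22953 bp away, with a fold of 3.48 and a −log10 q of 0.750. The HA summit lay 75 bp upstream of the start site and that of p65 (fold 7.84) 126 bp upstream. RefSeq lists 2 promoter windows for the gene, and distances are from the first. H3K27ac with ac4729 had a fold of 5.98 over the promoter, and ac647 had 0 peaks to 25 kb. S2 covered the promoter with a fold of 5.61 and lay at 2 more sites, 694 bp into the gene (3.04) and beyond its far end (33991949 to 33992263, 5.27). S5 was the list that H2-K1 alone of the 9 lacked, with its nearest peak 16053 bp away.

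The letters around the kappaB match were compared between both heavy chain promoters. Their longest identical stretch was 47 bases (35262893 to 35262939 in H2-D1, 34000442 to 34000488 in H2-K1), and it holds the kappaB run. With the other class I heavy chain promoters the longest stretch was 30 bases, between H2-K1 and H2-Q4. Reads from near-identical stretches may be placed at either gene, and no source used here gives how such reads were handled. The split of signal between H2-D1 and H2-K1 is uncertain.

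B2m (chromosome 2, 122147687 to 122153082, gene 12010), which encodes the light chain, had HA in M00002 with a fold of 10.45 (122147573 to 122147686) and 0 HA peaks of M00001 to 25 kb. The HA summit lay 72 bp upstream of the start site. p65 (fold 6.81) had its summit 157 bp upstream, 85 bp from that of HA, the widest gap among the sites with both. H3K27ac lay just upstream with both antibodies, 5.27 for ac4729 and 4.33 for ac647. S2 (4.95) and S5 (4.96) had summits 71 and 67 bp upstream, and a weaker S5 peak (3.37) lay 817 bp into the gene. The peaks at this promoter also fall within 5 kb of Patl2, which encodes an RNA-binding protein. Cbp, p300 and IgG of either line had 0 peaks to 25 kb of B2m.

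**Figure D3:**
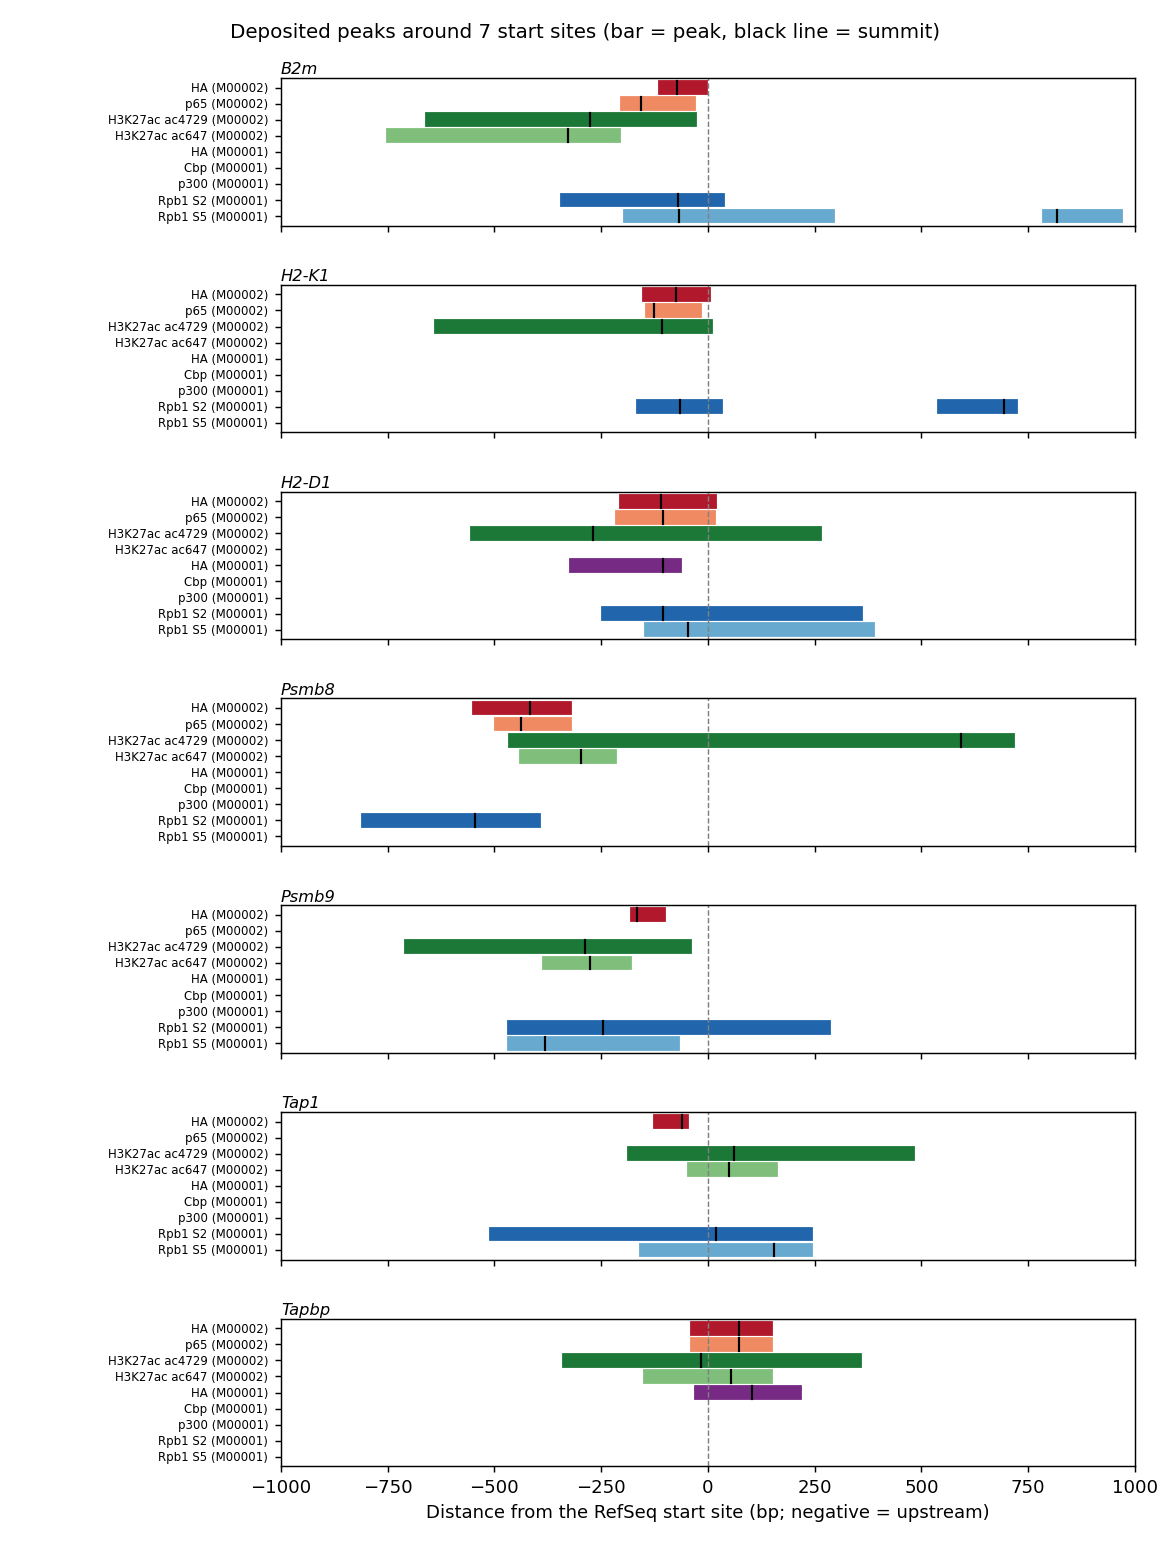
Peaks of the 9 lists other than IgG (rows) within 1 kb of the start site of 7 genes (panels), against the distance from the start site in bp, negative upstream. The strongest HA, p65 and polymerase peaks of B2m, H2-K1 and H2-D1 have their summits (black lines) between 47 and 157 bp before the start, and HA of M00001 is present at H2-D1 and Tapbp.

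Motif matches were set beside the peaks. The kappaB motif lay in 3 of 7 class I promoters, H2-D1, H2-K1 and B2m, and in 8.46% of 32851 RefSeq promoter windows of 300 bases. In H2-D1 the matches (start 171 and 170 bp before the start site) lay inside the peaks of HA in both lines and of p65. In H2-K1 (111 and 110 bp before) they lay inside HA and p65 of M00002. Their centres were between 56.5 and 57.5 bp from the HA summit of M00002 in H2-D1 and between 30.5 and 31.5 bp in H2-K1. In B2m the match (126 bp before the start site) lay inside the p65 peak, 35.5 bp from its summit, and just outside the HA peak. For the interferon-stimulated response element only an exact core was sought, GAAA repeated after 2 bases of any kind. This core occurred in B2m alone of the 7 (139 bp before the start site) and in 3.44% of all windows. Looser forms of the element were not sought, so the heavy chain promoters may hold one. A CCAAT box, CCAAT, occurred in 6 of 7 and in 37.4% of all windows; Psmb8 had 0 matches to any of the 3 motifs. The CCAAT matches of Tap1 and Psmb9 are the same letters, because their windows overlap. A match is only a run of letters, and a window without one says nothing of what binds there.

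The immunoproteasome and transporter genes lie in 1 block, Psmb9 (34182030 to 34187330, gene 16912), Tap1 (34187556 to 34197225, gene 21354), Psmb8 (34198195 to 34201454, gene 16913) and Tap2 (34204479 to 34216321, gene 21355). HA of M00002 had 3 peaks there, and HA of M00001, Cbp and p300 had 0 within 25 kb of any of the 4 genes. The strongest HA peak, with a fold of 12.0 (34197644 to 34197875), lay between Tap1 and Psmb8, its summit 416 bp upstream of the start site of Psmb8. It carried p65 (5.28), ac4729 (4.22), ac647 (4.62) and S2 (4.96). Psmb9 and Tap1 are read in opposite directions, away from a shared promoter region, and the HA peak between them was weak. Its fold was 3.51 (34187431 to 34187509), in the 20.9 percentile of the list, with a −log10 q of 1.14. p65 had 0 peaks on it. The other marks were not weak there: H3K27ac reached 6.67 with ac4729, in the 95.7 percentile, and 5.39 with ac647. S2 reached 6.76, in the 90.2 percentile, the highest S2 fold at any of the 9 genes, and S5 4.38.

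Before Tap2, an HA peak with a fold of 7.75 (34203609 to 34203739) lay outside the gene, its summit 825 bp from the lower end. This HA peak is shared with Psmb8, 2200 bp beyond the end of that gene. It carried none of the other 8 lists other than IgG. Tap2 had no H3K27ac peak in its window with either antibody, and the nearest, with ac4729, lay 5568 bp away at Psmb8. Inside Tap2 S2 (3.40, 34205904 to 34206152) and S5 (3.81, 34205853 to 34206150) shared 1 site, and S2 had a further peak beyond the upper end (3.62). The S2 peak inside Tap2 is shared with Psmb8. The S5 peak, with a −log10 q of 1.77, is also the only one counted for Psmb8, 4485 bp beyond the end of that gene. Tap2 thus had peaks in 3 of the 9 lists, the fewest of the 9 genes. H2-D1 and Tapbp had the most, with 7 each. The median of the 9 genes was 6 lists, and that of all genes was 3.

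**Figure D4:**
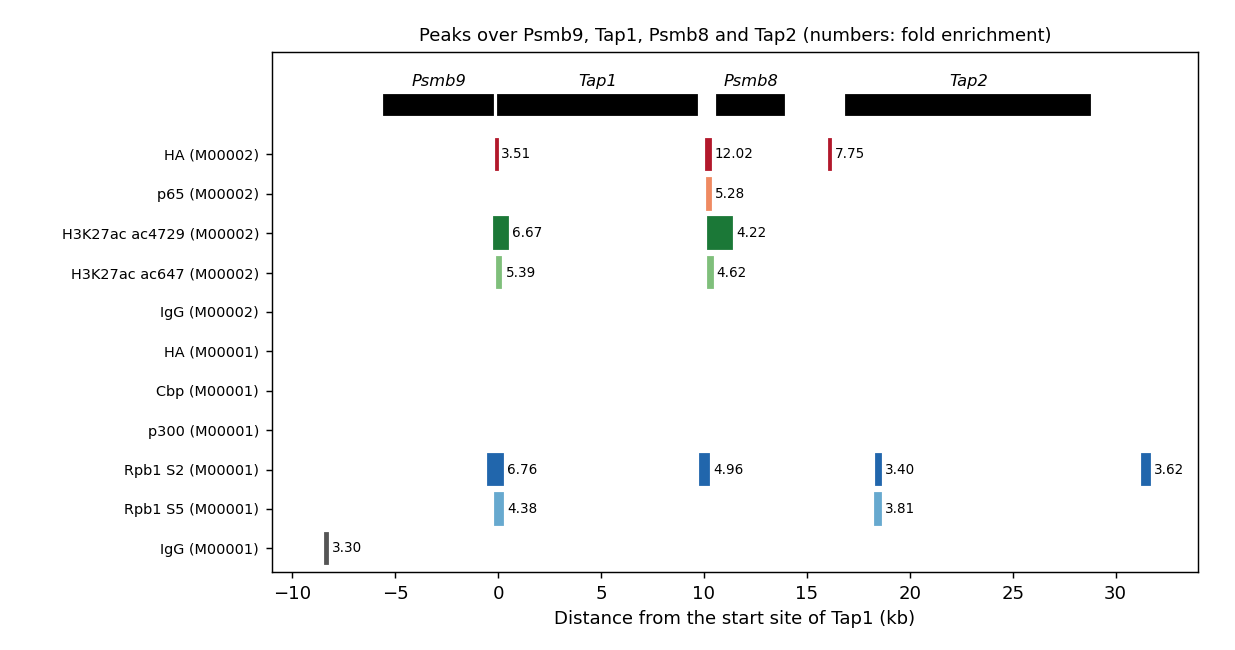
Peaks of the 11 lists (rows) over Psmb9, Tap1, Psmb8 and Tap2 (black bars), against the distance from the start site of Tap1 in kb, with the fold enrichment beside each peak. HA of M00002 has 3 peaks, and p65 overlaps the one between Tap1 and Psmb8 with a fold of 5.28.

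Tapbp (chromosome 17, 33919478 to 33929290, gene 21356), which encodes tapasin, was the second gene with HA in both lines. HA of M00002 had a fold of 12.6 (33919438 to 33919629) and HA of M00001 one of 5.75 (33919448 to 33919695), with summits 74 and 103 bp past the start site. The p65 summit fell on the same base as that of HA in M00002, with a fold of 11.5 (33919438 to 33919628). Both H3K27ac antibodies covered the site, with folds of 4.22 and 4.25. Neither polymerase list had a peak on this start site; the nearest S2 peak in the gene lay 1338 bp past it (2.74). At 2 neighbouring sites HA was present in M00002 alone. One lay 3507 bp upstream (fold 5.54), without p65 or H3K27ac and with the strongest polymerase peaks of the window, S2 at 6.38 and S5 at 5.71; it is shared with Daxx, a histone chaperone gene, and Zbtb22. The other lay beyond the far end of the gene (6.95), with p65 (5.70), ac4729 (4.77) and ac647 (4.60), and is shared with Rgl2.

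Nlrc5 (chromosome 8, 94434335 to 94527272, gene 434341) is by far the longest of the 9, at 92938 bp, and only 12.25% of all genes are at least as long, so its window had more room for a peak. HA of M00002 had 4 peaks there and HA of M00001 0 to 25 kb. The strongest, with a fold of 11.65 (94493395 to 94493620), lay inside the gene, 59.1 kb from its lower end, and carried p65 (9.93) and S2 (3.34). The p65 summit was 4 bp away from that of HA. H3K27ac had 0 peaks on it. In the window of Nlrc5, ac4729 had 2 peaks away from HA, one inside the gene (94516664 to 94516980, fold 3.93) and one beyond its upper end (94528332 to 94528566, 3.20). The 1 p300 peak of the 9 genes lay beside it (94492234 to 94492513, fold 4.43), with 881 bp between that peak and HA of M00002. S2 (4.14) and S5 (4.54) overlapped the p300 peak. Beyond the upper end, HA had a fold of 10.67 (94532022 to 94532201) with p65 (5.64) and S2 (2.87), shared with Cpne2. At the lower end HA was weak, with folds of 3.74 and 2.97 and −log10 q of 1.46 and 0.483. S2 had a fold of 3.95 over the lower end itself. Exons and introns were not used here.

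Taking the 9 genes by site, HA of M00002 had 13 distinct peaks with folds from 2.97 to 15.3 and a median of 9.75, and the median of all its peaks was 4.49. In all, 7 of the 13 lay in the highest of 5 equal classes of HA fold (8.23 or above). These were the start sites of H2-D1, Tapbp, B2m and H2-K1, the site before Psmb8, and 2 sites of Nlrc5. p65 overlapped all 7, and 89.6% (exact 95% interval 88.8 to 90.3) of the 6047 HA peaks of that class in the genome. HA of M00001 overlapped 2 of the 7, and 50.8% (49.55 to 52.1) of the class. S2 overlapped 6 of the 7 (38.5% of the class) and S5 2 (24.2%). H3K27ac overlapped 5 with ac4729 (74.4%) and 2 with ac647 (52.55%), and Cbp and p300 overlapped 0 (9.67% and 17.4%). Intervals cover counting error over peaks only, and with 7 sites none of these counts was tested. The genome shares cover HA peaks wherever they lie, while the sites counted here lie in or within 5 kb of named genes. These are unlike sets of sites, so a higher count is no trait of the 9 genes. HA of M00001, Cbp, p300, S2 and S5 also come from another line than the HA peaks of M00002. Over all 13 sites, p65 overlapped 8, and over all 29937 HA peaks of M00002 on these chromosomes it overlapped 33.7%. The distance between the HA and p65 summits of these 8 ran from 0 to 85 bp with a median of 28.5 bp, and the median over 10085 such pairs in the genome was 21 bp.

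**Figure D5:**
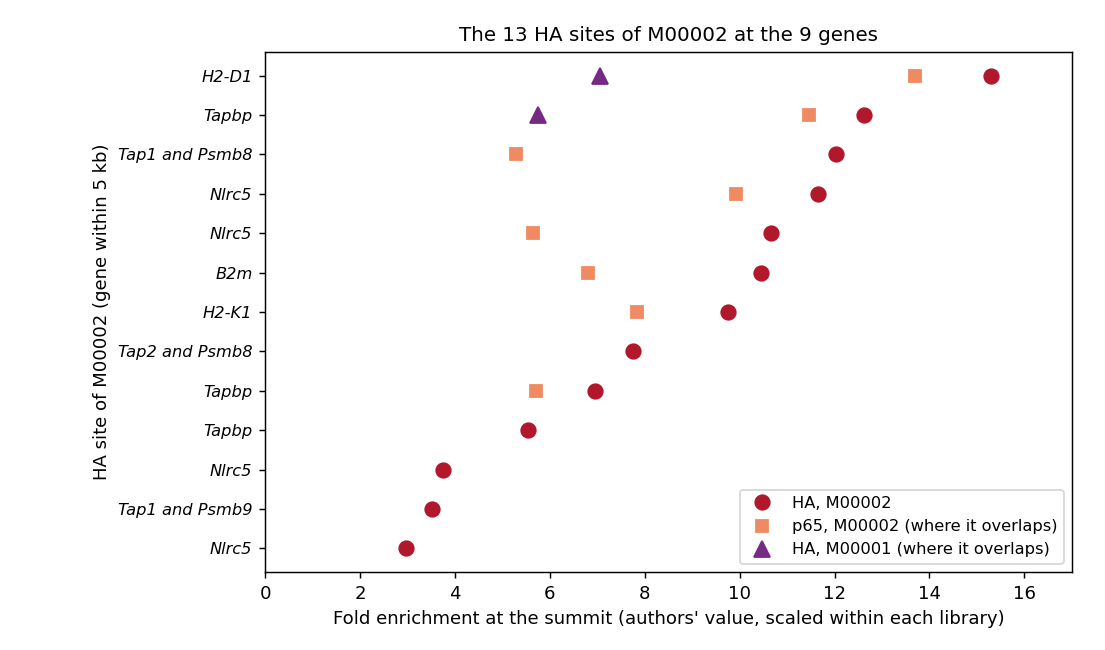
Fold enrichment (horizontal axis) at the 13 HA sites of M00002 (rows, named by the genes within 5 kb): HA of M00002 (circles), p65 of M00002 (squares) and HA of M00001 (triangles), the last 2 where they overlap the site. All 7 sites with an HA fold of 8.23 or above carry p65, and the triangles stand on the 2 sites with the highest fold, H2-D1 and Tapbp.

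Over the 7 promoter windows of 300 bases, HA of M00002 lay on 6, all but that of Psmb8, and on 19.0% of the windows of all 17274 genes with an entry. Tap1 and Psmb9 share their HA peak. p65 lay on 4 (11.2%), ac4729 on 7 (25.6%) and ac647 on 5 (7.66%). HA of M00001 lay on 2 (8.12%), S2 on 5 (39.4%) and S5 on 4 (19.3%). Cbp, p300 and IgG of both lines lay on 0 (2.28%, 5.53%, 0.318% and 0.104%).

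The rest of the pathway was read from fixed lists. Among 12 further class I heavy chain genes, HA of M00002 lay at 4 (50.2% of all genes) and HA of M00001 at 0 (22.8%), both lower shares than among all genes. They were H2-T3 (fold 14.8, with p65 at 9.25 and no H3K27ac), H2-Q4 (8.90, with p65 at 8.76 and ac4729 at 7.46), H2-T22 (5.13) and H2-Q10 (3.52). p65 lay at 5 of the 12, a higher share than the 33.5% of all genes, and H2-Q1 and H2-T23 had p65 without HA. How reads from stretches shared by class I genes were placed is unknown here too, as for H2-D1 and H2-K1. IgG of M00002 lay at 3 of these 12 and IgG of M00001 at 2, both higher shares than the 11.2% and 3.49% of all genes. H2-T10 was not in the table. Among 8 genes of peptide supply and loading, HA of M00002 lay at 4, close to the 50.2% of all genes, and HA of M00001 at 2 (22.8%). Calr (calreticulin, a chaperone of loading) had 16.0 and Psme2 (a proteasome activator subunit) 8.39, followed by Pdia3 (7.97), a thiol oxidoreductase of the loading complex, and the chaperone gene Canx (4.31). The 2 genes with HA of M00001 were Calr (5.66) and Pdia3 (3.98, with a −log10 q of 1.52). Of the 3 subunits that Psmb8, Psmb9 and Psmb10 replace in the immunoproteasome, Psmb6 and Psmb7 had HA in both lines (15.1 and 12.0 in M00002, 3.48 and 4.48 in M00001) and Psmb5 had 0. The Psmb6 peak of M00001 was weak, with a −log10 q of 0.750. Psmb10 itself had 0 HA peaks, with H3K27ac of both antibodies.

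The regulators had HA of M00002 at 9 of 11 genes (50.2% of all genes) and of M00001 at 4 (22.8%). Irf1, an interferon-induced activator of class I promoters, had the highest folds, 21.4 and 7.85. The NF-Y subunit gene Nfya (10.6 and 6.81) and the RFX complex genes Rfx5 (8.37 and 7.55) and Rfxank (7.73 and 3.98) also had HA in both lines. The M00001 peak of Rfxank had a −log10 q of 1.52. Nfyc (10.3), Irf2 (8.65), Creb1 (6.45), Nfyb (4.23) and Stat2 (3.55) had HA in M00002 only. H3K27ac with ac4729, S2 and S5 lay at all 11 (50.9%, 56.3% and 33.9% of all genes). In the class II pathway, which presents peptides taken up from outside, HA of M00002 lay at 6 of 10 genes, near the 50.2% of all genes, and HA of M00001 at 1 (22.8% of all genes). That gene was H2-DMa (11.7 and 7.55), which encodes part of a peptide exchange factor. The others were H2-DMb2 (9.92), Ciita (6.86), the class II transactivator, H2-DMb1 (5.22), H2-Oa (4.28) and H2-Ab1 (2.99, with a −log10 q of 0.483). H2-DMb1 and H2-DMb2 had the same folds for p65 (7.54), ac4729 (5.72) and S2 (3.69), so they may not be separate sites. For genes outside the 9, peaks shared with neighbours were not listed. The genes of the class II chains H2-Aa and H2-Eb1 had 0 peaks in any of the 11 lists. At Ciita, p65 (5.86) and ac4729 (4.30) were present and ac647, Cbp, p300, S2 and S5 were not.

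For 8 of the 9 genes, those with at least 4 lists, the most similar other gene was sought by the mean difference of the percentile of the strongest peak over 9 lists. Tap2 had too few lists. For H2-K1 it was Gar1, with a mean difference of 1.70 percentile points against a median of 33.5 over all genes. For H2-D1 it was Plekhj1 (5.61), for B2m Lrch1 (4.17), for Tap1 Glo1 (4.37), for Tapbp Tmem134 (3.89) and for Psmb8 Ipmk (4.73). For Psmb9 it was Selenot (3.40) and for Nlrc5 Pim1 (4.39). Plekhj1 and Selenot did not have peaks in the same set of lists as H2-D1 and Psmb9, while the other 6 nearest genes matched their set. Each nearest gene was picked for the smallest difference of all genes, so it falls below the median by construction. Lists where neither gene had a peak add nothing to the difference, so few lists make it small. The combination of lists at H2-D1 was held by 0.227% of all genes and that at Tapbp by 2.91%. The other combinations were held by 0.37% (Nlrc5) to 1.65%. That of H2-D1 includes Cbp only through its weak peak (−log10 q 0.965), so its low share depends on that peak. The likeness of genes rests on 9 libraries of 2 lines.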

How the data were processed

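CUT&RUN peaks of 11 libraries from 2 lines were analysed, 1 list per library, so peaks were called per sample. Per the submitters' processing notes, reads were handled on mm10 with Bowtie2 2.3.5.1 and MACS2, beside Trim Galore, FastQC and deepTools, with settings not listed. The deposited lists give for each peak a fold enrichment (a ratio over the caller's background), a −log10 p and a −log10 q, per the column order of MACS2. No deposited peak had a −log10 p under 3. No source used here names the control of the peak calling, or explains the 120 bp in the names of 2 lists, HA and p65 of M00002.

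A gene was counted when a peak overlapped it, or 5 kb on either side, by at least 1 bp. Genes came from a RefSeq table of GRCm38.p6, and start sites, strand and promoter sequences from a RefSeq promoter table of the same build. Overlap and motif search were tested on simulated data. Percentiles are ranks of fold within a list over chromosomes 1 to 19 and X. Python 3.11.15, pandas 2.3.3, numpy 2.4.6, scipy 1.17.1 and matplotlib 3.10.9 were used. All 9 genes are named. Of the other lists the genes with HA in at least 1 line are named, and of the genes without HA some that were chosen after their values were seen. The values of 1 gene of the regulator list are not reported here. The members and lists were chosen with earlier results of these data known. The classes of HA fold were added after the data were seen. The alternatives were windows of 1 and 25 kb, −log10 q of at least 2 or 5, removal of peaks over IgG, summits in place of peaks, gene ends in place of whole genes, and a 50% overlap of sites.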

Additional observations from a re-analysis of the deposited data

How the results depend on the processing

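Of 66 counts under the alternatives, 55 stayed within 1.5 times the count given. HA of M00002 lay at 8 of the 9 genes with −log10 q of at least 2 (38.0% of all genes) or 5 (27.3%). Psmb9 dropped out at both limits. HA of M00002 lay at 9 under the other alternatives, among them the 1 kb window (44.1%) and the 25 kb window (67.2%). HA of M00001 lay at 2 under all alternatives (9.74% to 22.7%) but the 25 kb window (36.2%), which added H2-K1. With the 25 kb window, genes with H3K27ac of both antibodies went from 5 to 8 (27.7% to 40.9%). Those with Cbp or p300 went from 2 to 4 (22.8% to 37.2%) and those with IgG of either line from 2 to 5 (13.3% to 23.5%). With 1 kb IgG lay at 1 (11.1%) and S5 at 6 (30.0%), without Psmb8 and Tapbp. With −log10 q of at least 2, Cbp or p300 lay at 1 (Nlrc5; 10.6%) and IgG at 0 (2.39%). With −log10 q of at least 5, H3K27ac of both antibodies lay at 2, Psmb9 and Tap1 (12.4%), and S5 at 2, H2-D1 and Tapbp (11.4%). Cbp or p300 lay at 0 (3.47%) and IgG at 0 (1.24%). With gene ends only, Cbp or p300 lay at 1, H2-D1 (14.8%). These alternatives remove or add peaks by construction. Read depth is unknown, so a weak peak and a missing one cannot be told apart by depth. No paired analysis was possible because each line and antibody has 1 library.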
